A study of Mus musculus with 24 samples.

Results

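The mitochondrial genome is represented by 37 rows of the deposited liver expression table, out of 55536, chosen because their gene name starts with mt-. They are 13 protein-coding genes, 2 ribosomal RNA genes and 22 transfer RNA genes. Livers came from wild-type Balb/c mice 6 weeks old in 3 groups of 8 libraries, namely healthy controls (Con), acute pancreatitis (AP) and severe acute pancreatitis (SAP). Pancreatitis is an inflammation of the digestive gland, and in its severe form organs outside the pancreas, the liver among them, can be affected. Neither the means of induction nor the time of sampling is stated in the sources used here. The labels do not state that each library came from a separate mouse, so the p-values measure the spread between libraries. Levels are in TPM, a read measure divided by transcript length and then scaled to a fixed library total. The deposited columns sum to between 986423 and 993642, not the same in every library, and shares here are of each column's sum. TPM keeps no read counts, so the depth is unknown.

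The mitochondrial genome is a small circle that encodes core subunits of the respiratory chain together with the RNAs needed to translate them inside the organelle. Both strands, called heavy and light, are transcribed as long precursors, and transfer RNAs placed between the other genes mark where the precursors are cut. The messengers encode subunits of complex I (NADH dehydrogenase), complex III (cytochrome bc1), complex IV (cytochrome c oxidase) and complex V (ATP synthase), while the remaining subunits of these complexes, and complex II as a whole, are encoded in the nucleus. Hepatocytes are rich in mitochondria.

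Of the 37 rows, 18 had a mean of at least 1 TPM and were tested, and 19 transfer RNA rows were listed at 0 in all 24 libraries. The 7 hepatocyte markers examined (Alb, Apoa1 and other secreted proteins) were all present, and made up 9.09% ± 0.667 (SD, n = 8) of the library total in controls, 9.43% ± 0.812 in AP and 8.16% ± 0.765 in SAP. Summed neutrophil markers went from 0.000997% ± 0.000862 of the total in controls to 0.0195% ± 0.00736 in SAP, where all 8 libraries lay above every control. Of these 7 markers, 4 had a mean under 1 TPM over all libraries. Of 8 exocrine pancreas markers, 7 had a mean under 1 TPM, and their summed level went from 0.00261% ± 0.00082 to 0.00123% ± 0.000211, 2.12-fold lower in SAP, where all 8 libraries lay below every control. The summed markers of Kupffer cells, red cells and sinusoidal endothelium were 1.71-fold, 1.64-fold and 1.37-fold lower in SAP, with 4, 3 and 4 of 8 libraries below every control. In bulk liver, fewer cells of a type and less RNA per cell cannot be told apart, and the part of these marker shifts in the results was not tested.

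Transcripts of the mitochondrial genome took a smaller share of the library in AP than in most controls, and a much smaller one in SAP. In controls the 37 rows held between 12.5% and 22.2% of the library total, with a median of 15.6% and a mean of 17.1% ± 3.68 (SD, n = 8). In AP they held between 7.81% and 13.7%, with a median of 10.9% and a mean of 10.9% ± 2.0. In SAP they held between 2.80% and 6.26%, with a median of 4.32% and a mean of 4.46% ± 1.02. All 8 SAP libraries lay below every control and below every AP library, and 6 of 8 AP libraries lay below every control. The SAP mean was 3.84-fold under that of controls. Earlier results of these data set SAP 21 to 25 (4 libraries) apart from SAP 26 to 29, and both sets lay below every AP library here, at 3.79% to 6.26% and 2.80% to 5.22%. This share is a sum over the members and is given as a description.

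By class, the messengers went from 15.8% ± 3.44 of the library in controls to 10.0% ± 1.79 in AP and 4.08% ± 1.00 in SAP (SD, n = 8 each). The ribosomal RNA rows held only 0.361% ± 0.218, 0.235% ± 0.132 and 0.159% ± 0.0784. How RNA was selected for the libraries is not described here, so these rows may not reflect the amount of ribosomal RNA in the tissue. The transfer RNA rows held 0.927% ± 0.186, 0.608% ± 0.116 and 0.216% ± 0.0476. The 3 classes therefore kept the same order of groups, but the ribosomal RNA share of controls and SAP overlapped, with 6 of 8 SAP libraries below every control.

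**Figure D1:**
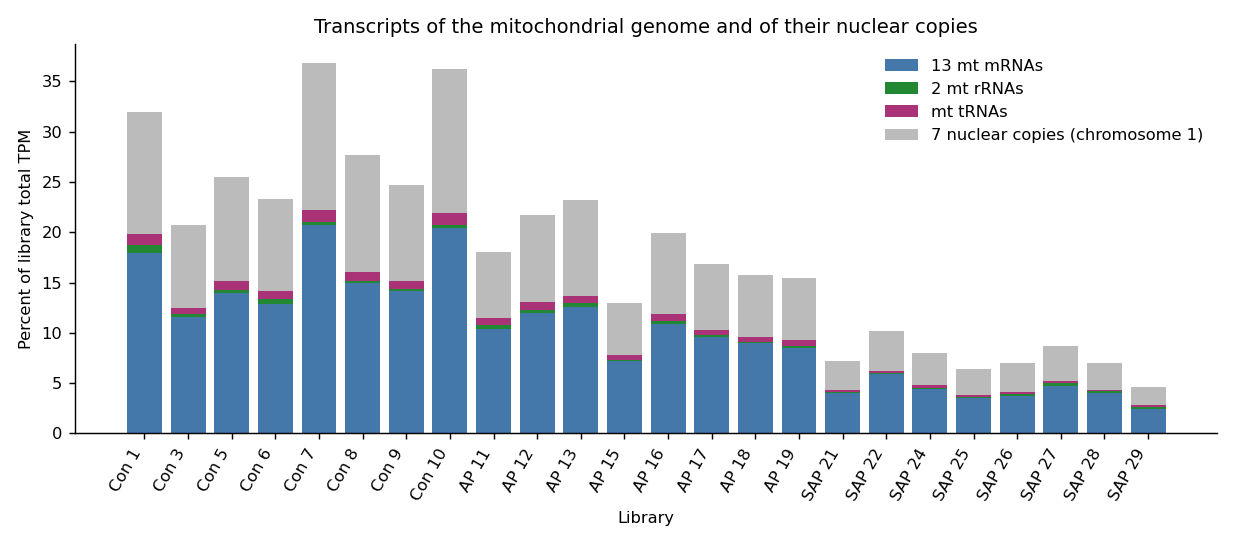
Stacked bars give, for each of the 24 libraries, the percent of the library's total TPM held by the messengers, ribosomal RNAs and transfer RNAs of the mitochondrial genome and by 7 near-identical nuclear copies. Without the copies, the SAP bars reach at most 6.26%, under the lowest AP bar of 7.81%.

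Some rows without a mitochondrial name hold nearly the same sequence as mitochondrial messengers. On chromosome 1 of the GRCm38 mouse genome, in the GENCODE M21 annotation, 7 unprocessed pseudogenes lie side by side on the minus strand at chr1:24611535-24616197, a block of 4663 bases. They are copies of 7 mitochondrial messengers in the mitochondrial order. Gm29216 copies the 3′ part of mt-Co1, Gm28661 copies mt-Co2, Gm10925 copies mt-Atp6, Gm28437 copies mt-Co3, Gm28438 copies mt-Nd3, Gm10222 copies mt-Nd4l and Gm28439 copies the 5′ part of mt-Nd4. Over all aligned bases the block differs from the mitochondrial genes at 2 positions, so the authors' counting could split reads between the members of each pair.

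The substitutions are T3C between mt-Nd3 and Gm28438 and A1066T between mt-Co1 and Gm29216, with positions counted from 1 at the 5′ end of the mitochondrial gene and the mitochondrial base first. The stretches around them are shown because these letters are the only ones inside the aligned parts by which a read could be placed. Mitochondrial sequences are from the plus strand at chrMT:9459-9491 and chrMT:6390-6423, the nuclear ones from the minus strand at chr1:24613087-24613119 and chr1:24616155-24616188, and the capital marks the base that differs.
mt-Nd3: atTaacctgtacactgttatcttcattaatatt
Gm28438: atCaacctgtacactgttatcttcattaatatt
mt-Co1: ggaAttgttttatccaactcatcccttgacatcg
Gm29216: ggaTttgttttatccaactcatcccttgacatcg
The start of mt-Atp6 (chrMT:7927-7986, plus strand) has the same letters in Gm10925, as do the other bases of the copy, and is shown as a stretch that offers no such base.
mt-Atp6 and Gm10925: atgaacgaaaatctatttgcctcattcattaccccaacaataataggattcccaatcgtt

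The 7 copies together held 11.2% ± 2.39 of the library in controls, 7.11% ± 1.49 in AP and 2.92% ± 0.634 in SAP (SD, n = 8 each). Their part of the summed TPM of mitochondrial rows and copies was 39.7% ± 1.30, 39.5% ± 1.44 and 39.6% ± 0.923. The split was thus nearly the same in the 3 groups for the sum, and the joint share of rows and copies went from 28.4% ± 6.02 to 18.0% ± 3.44 and 7.38% ± 1.65.

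For single pairs the split ranged from almost none to almost all. Length-weighted, Gm10925 held 99.6% ± 0.577 of the mt-Atp6 pair in controls, Gm28661 held 99.3% ± 0.334 of the mt-Co2 pair and Gm28437 held 93.7% ± 0.958 of the mt-Co3 pair (SD, n = 8 each). The mitochondrial rows of these 3 genes therefore hold a small remainder of the pair. The split of 4 pairs differed between the group means, and that of mt-Co1 with Gm29216 is given with mt-Co1. Gm10222 held 57.6% ± 3.31 of the mt-Nd4l pair in controls, 66.6% ± 3.38 in AP and 79.6% ± 6.60 in SAP. Gm28438 held 29.99% ± 6.48, 37.2% ± 4.01 and 56.7% ± 12.9 of the mt-Nd3 pair, so in SAP the rows of mt-Nd4l and mt-Nd3 alone had larger negative changes than their pairs. Gm28439 held 14.1% ± 10.7 of the mt-Nd4 pair in controls, with Con 1 the highest at 39.0%, 5.47% ± 2.53 in AP and 5.86% ± 2.99 in SAP. Below, a level "with its copy" is the mitochondrial row plus the TPM of the copy weighted by its length, a sum added after the copies were seen in the table.

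**Figure D2:**
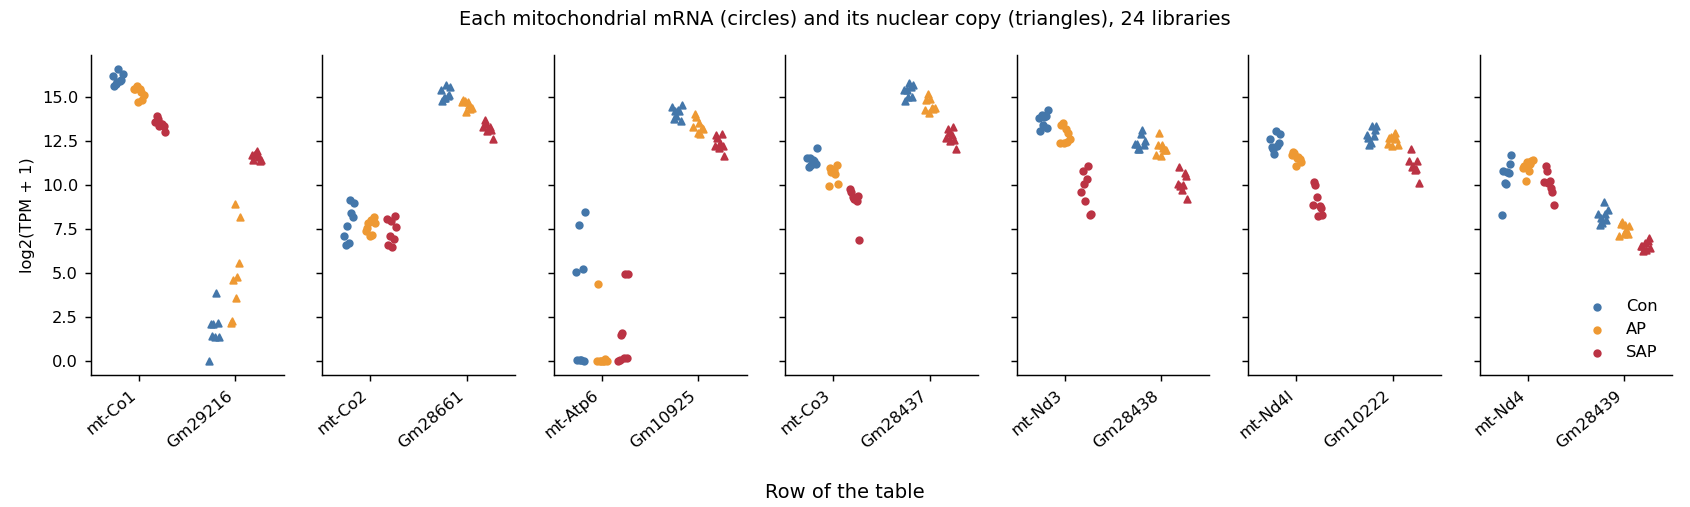
Each panel plots log2(TPM + 1) in the 24 libraries for a mitochondrial messenger (circles) and its chromosome 1 copy (triangles), with controls in blue, AP in orange and SAP in red. In 6 pairs the SAP triangles are low, whereas those of Gm29216 rise from at most 13.2 TPM in controls to at least 2610 TPM in SAP.

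Against controls, 4 of the 18 tested rows passed as lower in AP and 0 as higher, beside 5.48% of all tested genes in either direction, 1.13% lower and 4.35% higher (limma on log2(TPM + 1), Benjamini-Hochberg adjusted p under 0.05 over 10555 genes). The 4 were mt-Co1, mt-Nd4l, mt-Nd5 and the transfer RNA mt-Tq. No row passed as higher in any of the 3 comparisons, where 2203 genes in AP and 8009 in SAP against controls, and 7802 between SAP and AP, had an unadjusted p under 0.05. In SAP against controls 15 rows passed as lower, beside 74% of all tested genes in either direction, 29.8% lower and 44.2% higher. Between SAP and AP 13 passed as lower, beside 72.1% of all genes in either direction, 31% lower and 41% higher. With the copies added, the counts of lower rows were 6 in AP, 17 in SAP and 15 between SAP and AP, with 1.1%, 29.8% and 31% of all tested genes lower. AP and SAP were compared with the same controls. The median log2 change was −0.60 over the 18 rows and 0.06 over all genes in AP, and −1.83 and 0.21 in SAP against controls.

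**Figure D3:**
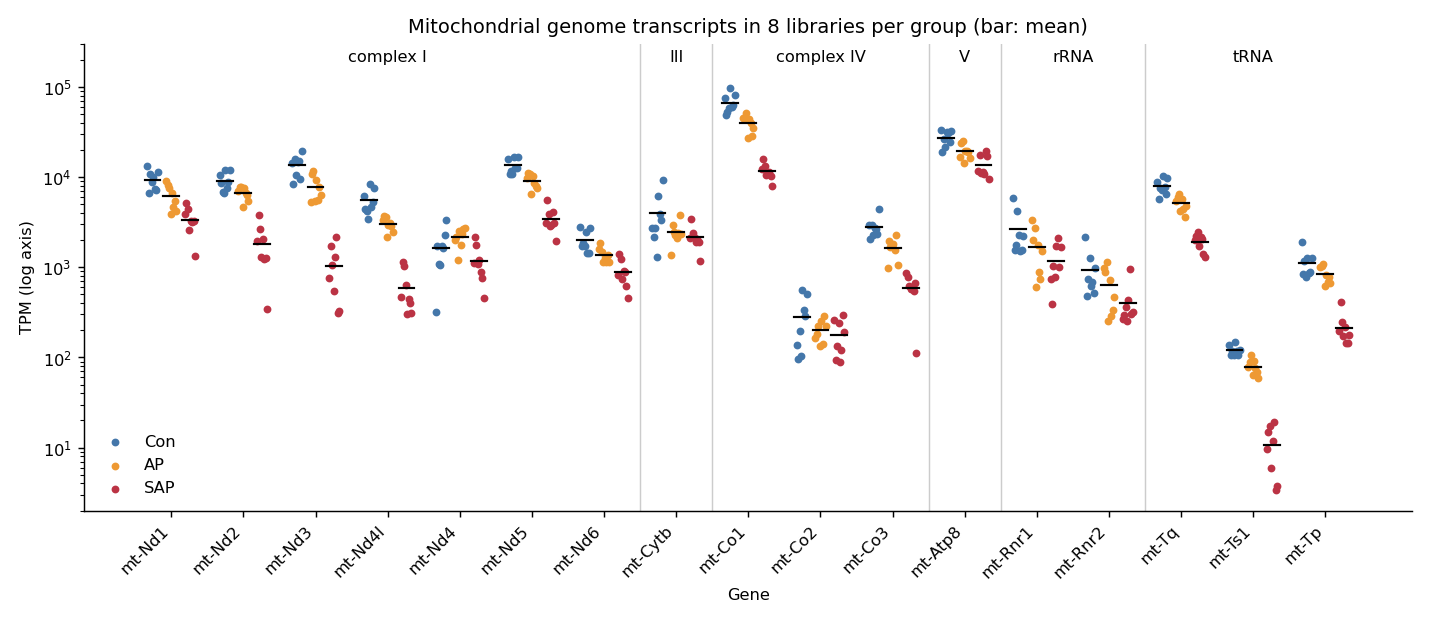
Points give the TPM of each library on a log axis for the 17 rows above 0 everywhere, grouped by respiratory complex and RNA class, with black bars at the group mean of 8 libraries. The SAP points of mt-Co1, mt-Nd3, mt-Nd4l and mt-Ts1 lie wholly below the other groups, while those of mt-Co2, mt-Nd4 and mt-Cytb overlap with controls.

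Complex IV, the oxidase that passes electrons to oxygen, has its 3 catalytic core subunits in the mitochondrial genome. The messenger of the largest one, mt-Co1, was the most abundant member. Its row ranged from 49501 to 97657 TPM in controls (median 61342), from 26968 to 51221 in AP (median 42152) and from 8059 to 15707 in SAP (median 11208). All 8 SAP libraries were below every AP library, and 7 of 8 AP libraries below every control. It fell by 0.77 on the log2 scale in AP (SE 0.16, limma adjusted p = 0.00870) and by 2.53 in SAP against controls (SE 0.16, adjusted p = 3.39e-13). The call in AP was lost under quantile normalization (adjusted p = 0.0812). With its copy, mt-Co1 changed by −0.77 in AP (limma adjusted p = 0.00721) and by −2.40 in SAP against controls (adjusted p = 5.64e-13).

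For mt-Co2, which encodes the subunit that receives electrons from cytochrome c, the row alone held 279 ± 180.3 TPM in controls, 201 ± 54.9 in AP and 179 ± 81.3 TPM in SAP (SD, n = 8), and the groups overlapped. With its copy the level was 37889 ± 8704, 24223 ± 3993 and 9851 ± 2038 TPM. That joint level fell by 0.63 in AP (SE 0.15, adjusted p = 0.0156) and by 1.94 in SAP (SE 0.15, adjusted p = 1.29e-11) on the log2 scale, where the row alone passed in neither comparison. Whether the added reads came from the mitochondrial or the nuclear sequence cannot be told apart.

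The row of mt-Co3, the third core subunit, ranged from 2081 to 4384 TPM in controls (median 2684), from 977 to 2268 in AP (median 1729) and from 113 to 865 in SAP (median 599). In SAP all 8 libraries lay below every AP library. The AP change of the row was −0.79 (SE 0.29, adjusted p = 0.108). Without SAP 26 to 29 the change was the same, and its adjusted p was 0.0128. With its copy, the log2 change was −0.78 in AP (SE 0.18, adjusted p = 0.0173) and −2.55 in SAP (SE 0.18, adjusted p = 5.42e-12). Complex IV was accordingly the complex whose 3 members all passed as lower in AP once copies were counted, beside 1.1% of all tested genes.

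Gm29216, the copy of the mt-Co1 end, went the other way. It was listed between 0 and 13.2 TPM in controls (median 2.44), between 3.34 and 472 in AP (median 24.5) and between 2610 and 3838 in SAP (median 3160). All 8 SAP libraries lay above every AP library, and 5 of 8 AP libraries above every control, with AP 15 and AP 19 the highest at 472 and 284 TPM. The log2 change was 3.20 in AP (SE 0.72, adjusted p = 0.0145) and 9.83 in SAP against controls (SE 0.72, adjusted p = 9.60e-12). Of its 492 bases, 483 align to bases 1063 to 1545 of mt-Co1. It held 0.00184% ± 0.00221 of the pair in controls, 0.114% ± 0.198 in AP and 8.17% ± 1.67 in SAP (SD, n = 8). In TPM, reads of the pseudogene and reads of a mitochondrial RNA that ends in this stretch cannot be told apart, and the other 6 copies had negative log2 changes in both comparisons.

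Complex I takes electrons from NADH, and 7 of its membrane subunits are mitochondrially encoded. In SAP against controls 6 of the 7 rows passed as lower and in SAP against AP all 7 did, while in AP only mt-Nd4l and mt-Nd5 passed. Of all tested genes, 29.8%, 31% and 1.13% passed as lower in these comparisons, in that order. The row of mt-Nd3 ranged from 8456 to 19385 TPM in controls (median 14535), from 5338 to 11797 in AP (median 7074) and from 312 to 2152 in SAP (median 919). No SAP library reached the lowest AP library. Its AP change was −0.82 (SE 0.33, adjusted p = 0.145, or 0.0357 without SAP 26 to 29). It fell by 3.98 on the log2 scale in SAP against controls (SE 0.33, adjusted p = 7.36e-11), and by 3.21 with its copy (SE 0.24, adjusted p = 1.33e-11), so the larger of these values includes the moved split described above.

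For mt-Nd4l the row ranged from 3426 to 8476 TPM in controls (median 5012), from 2161 to 3663 in AP (median 3015) and from 300.46 to 1139 in SAP (median 457). The AP and SAP groups did not overlap. The log2 change in SAP was −3.34 (SE 0.24, adjusted p = 6.92e-12) for the row and −2.22 (SE 0.20, adjusted p = 3.50e-10) with its copy. The AP call (−0.84, SE 0.24, adjusted p = 0.0401) was lost with the copy added (−0.50, adjusted p = 0.147), under median centring (adjusted p = 0.0695), with no filter on low values (adjusted p = 0.107) and without any of Con 1, 7, 9 and 10 and AP 15 to 19, where the adjusted p reached 0.103.

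The complex I messengers with no near-identical copy give values that do not depend on this split. mt-Nd2 ranged from 6736 to 12138 TPM in controls (median 8685), from 4639 to 7819 in AP (median 6875) and from 345 to 3808 in SAP (median 1616), where SAP 29 was lowest and SAP 22 highest. It fell by 2.55 in SAP against controls (SE 0.30, adjusted p = 4.02e-08), and the groups AP and SAP did not overlap. mt-Nd5 ranged from 10729 to 16814 TPM in controls (median 12676), from 6505 to 11232 in AP (median 9164) and from 1977 to 5589 in SAP (median 3115). It fell by 0.57 in AP (SE 0.16, adjusted p = 0.0401), a call lost under quantile normalization, median centring or no filter on low values (adjusted p up to 0.114) and without any of Con 1, 7, 9 and 10, AP 15 and AP 17 to 19 (adjusted p up to 0.105), and by 2.0 in SAP (SE 0.16, adjusted p = 6.66e-11).

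mt-Nd1 went from 9399 ± 2327.5 TPM in controls to 6245 ± 1957 in AP and 3381 ± 1167 in SAP (SD, n = 8). Its log2 change in SAP was −1.53 (SE 0.23, adjusted p = 1.60e-06), and all 8 SAP libraries lay below every control. mt-Nd6, the single messenger encoded on the light strand, went from 2031 ± 555 to 1383 ± 261 and 883 ± 306 TPM. Its log2 change in SAP was −1.23 (SE 0.19, adjusted p = 2.94e-06), and its fall between AP and SAP (−0.70, SE 0.19, adjusted p = 0.00210) was no longer called without SAP 26 to 29 (−0.43, adjusted p = 0.0689). In AP neither passed, with log2 changes of −0.61 and −0.53. Counting by strand is not stated in the sources used here. Reads of mt-Nd6 and of heavy-strand precursors opposite it thus cannot be told apart.

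mt-Nd4 was the exception among the messengers. The row ranged from 316 to 3316 TPM in controls (median 1682), from 1207 to 2745 in AP (median 2254) and from 459 to 2174 in SAP (median 1100), so that the 3 groups overlapped. Its log2 change was 0.61 in AP (SE 0.35, adjusted p = 0.334) and −0.37 in SAP against controls (SE 0.35, adjusted p = 0.338), and with its copy −0.51 in SAP (adjusted p = 0.126). Without Con 1, the lowest control, the SAP change was −0.67 and passed (adjusted p = 0.0310). Against AP the row fell by 0.98 in SAP (SE 0.35, adjusted p = 0.0141), a call lost without SAP 26 to 29 (−0.52, adjusted p = 0.264).

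mt-Nd4l and mt-Nd4 are neighbours on the heavy strand and are known to stay on the same mature messenger. Their annotated genes share 7 bases, in capitals in the stretch at chrMT:10137-10203 (plus strand), shown because the same RNA carries both.
mt-Nd4l/mt-Nd4: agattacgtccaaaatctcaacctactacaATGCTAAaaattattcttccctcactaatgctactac
With their copies, mt-Nd4l held 13067.5 ± 3776 TPM in controls and mt-Nd4 held 1844 ± 912, and in SAP 2875 ± 1145 and 1242 ± 547 (SD, n = 8). Per length, the 2 parts of this messenger were thus neither equal in level nor equal in change, and mt-Nd4l is only 297 bases long.

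Complex III has a single mitochondrially encoded subunit, cytochrome b. The row of mt-Cytb ranged from 1306 to 9412 TPM in controls (median 3053), from 1382 to 3768 in AP (median 2366) and from 1168 to 3466 in SAP (median 2094). Only 1 SAP library lay below every control, and Con 10 and Con 7 were the highest at 9412 and 6130 TPM. It fell by 0.70 in SAP (SE 0.29, adjusted p = 0.0305), the smallest change among the rows that passed in that comparison. The call was lost without Con 7, Con 10 or SAP 29 (adjusted p up to 0.0839), with no filter on low values (adjusted p = 0.0650), with the 2 groups fitted alone (adjusted p = 0.0506) and without SAP 26 to 29 (−0.44, adjusted p = 0.290).

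Complex V, the ATP synthase, has 2 mitochondrially encoded subunits, and their genes overlap on the heavy strand. The 43 shared bases are in capitals in the stretch at chrMT:7897-7999 (plus strand), shown because reads from them belong to both genes.
mt-Atp8/mt-Atp6: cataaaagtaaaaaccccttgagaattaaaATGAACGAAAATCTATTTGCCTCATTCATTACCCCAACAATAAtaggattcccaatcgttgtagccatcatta
mt-Atp8, which encodes a small membrane subunit, ranged from 18942 to 33386 TPM in controls (median 28600), from 14496 to 24898 in AP (median 19377) and from 9564 to 19579 in SAP (median 11630). In SAP 7 of 8 libraries lay below every control, and SAP 22, 27 and 28 were the highest. It fell by 1.03 in SAP against controls (SE 0.16, adjusted p = 2.29e-06) and by 0.53 against AP (SE 0.16, adjusted p = 0.00435, or 0.0518 with the 50 most abundant genes left out of the total). The AP change of −0.50 (SE 0.16) had an adjusted p of 0.0606 and was called under 6 of the 15 other settings, among them without SAP 26 to 29 (adjusted p = 0.0315).

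The row of mt-Atp6, which encodes the subunit lining the proton path, was listed at 0 in 8 of the 24 libraries, and at most at 347 TPM, while its copy Gm10925 held 18030 ± 3920 TPM in controls. Read alone, the row gave no interpretable fold change. With its copy, controls held 18028 ± 3986 TPM, AP 10901 ± 3281 and SAP 5419 ± 1501 (SD, n = 8). It fell by 0.75 in AP (SE 0.18, adjusted p = 0.0228) and by 1.75 in SAP (SE 0.18, adjusted p = 5.73e-09), which places both complex V genes among the falls in SAP. As these genes share 43 bases, their values are not independent. The shared bases are also the first of Gm10925, and mt-Atp8 had no copy added.

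**Figure D4:**
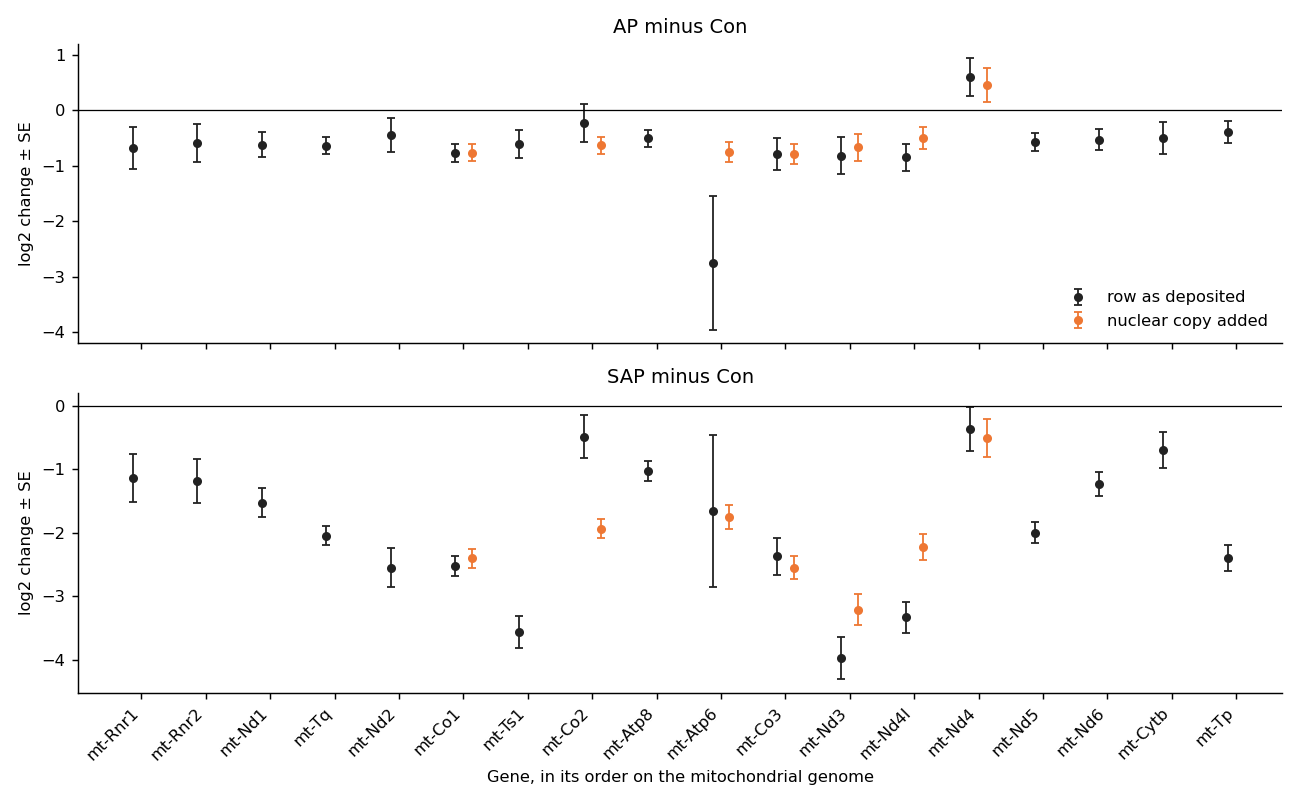
Log2 changes with their standard errors are plotted in genome order for the 18 tested rows, black for the row as deposited and orange for the 7 messengers with their chromosome 1 copy added. In SAP minus Con the changes run from −3.98 (mt-Nd3) to −0.37 (mt-Nd4), and adding the copy moves mt-Co2 from −0.49 to −1.94.

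The ribosomal RNAs of the small and large mitochondrial subunit, mt-Rnr1 and mt-Rnr2, open the heavy strand. mt-Rnr1 ranged from 1501 to 5946 TPM in controls (median 2010), from 601 to 3375 in AP (median 1636) and from 395 to 2118 in SAP (median 1011). mt-Rnr2 ranged from 474.5 to 2153 TPM in controls (median 715), from 255 to 1148 in AP (median 592) and from 252 to 947 in SAP (median 312). Con 1 and Con 6 were the highest controls for both, and the groups overlapped. As said above, these rows may not reflect the amount of ribosomal RNA in the tissue. The log2 changes in SAP were −1.15 (SE 0.38, adjusted p = 0.00837) and −1.18 (SE 0.34, adjusted p = 0.00335). Without SAP 21 to 25 they were −0.56 (adjusted p = 0.252) and −0.88 (adjusted p = 0.0823), so neither call was kept. That fit had fewer SAP libraries, so its power was lower as well. Neither passed in AP, nor in SAP against AP, where the log2 changes were −0.46 and −0.60. Without SAP 26 to 29 that of mt-Rnr1 was −1.05 and passed (adjusted p = 0.0413), and without SAP 27 that of mt-Rnr2 was −0.80 and passed (adjusted p = 0.0328).

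Of the 22 transfer RNA rows, 3 held values, mt-Tq (glutamine), mt-Ts1 (serine) and mt-Tp (proline). All lie on the light strand, and other light-strand transfer RNA rows such as mt-Ta and mt-Te were at 0. They are 71, 69 and 67 bases long, short for standard RNA libraries, and opposite to heavy-strand precursors. The sources used here do not state whether the authors counted by strand, so reads from either strand cannot be told apart. Their sequences, on the minus strand at chrMT:3772-3842, chrMT:6870-6938 and chrMT:15356-15422, are shown because they are the only transfer RNA genes with a measured level.
mt-Tq: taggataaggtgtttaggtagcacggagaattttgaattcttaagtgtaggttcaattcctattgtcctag
mt-Ts1: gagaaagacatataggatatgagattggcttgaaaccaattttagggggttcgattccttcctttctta
mt-Tp: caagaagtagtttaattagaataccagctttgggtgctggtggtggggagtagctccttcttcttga

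The mt-Tq row ranged from 5703 to 10182 TPM in controls (median 7608), from 3646 to 6506 in AP (median 5134) and from 1307 to 2495 in SAP (median 2015). It fell by 0.63 in AP (SE 0.15, adjusted p = 0.0175), a call kept in each of the 24 fits without 1 library (adjusted p up to 0.0493) and lost with no filter on low values (adjusted p = 0.0521), and by 2.05 in SAP (SE 0.15, adjusted p = 7.17e-12). mt-Ts1, which lies against the end of mt-Co1 and overlaps it by 3 bases on the other strand, ranged from 105 to 149.57 TPM in controls (median 118), from 58.8 to 107 in AP (median 77.8) and from 3.42 to 19.1 in SAP (median 10.8). It had the narrowest spread of the members in controls relative to its level, and its SAP values lay far below the other groups. Its AP change was −0.61 (SE 0.25, adjusted p = 0.154, or 0.0281 without SAP 26 to 29). It fell by 3.56 in SAP (SE 0.25, adjusted p = 4.18e-12). mt-Ts1 lies between mt-Co1 and mt-Co2, and the chromosome 1 stretch between their copies was not compared with it. Whether a moved split of reads is part of this fall was therefore not tested. mt-Tp went from 1122 ± 374 TPM in controls to 835 ± 179 in AP and 214 ± 86.3 in SAP (SD, n = 8), a fall of 2.40 in SAP on the log2 scale (SE 0.20, adjusted p = 8.53e-11).

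Because the members did not fall equally, the make-up of the mitochondrial messenger pool differed between groups. With copies counted, complex IV messengers made up 55.9% ± 1.86 of the pool in controls, 52.9% ± 2.37 in AP and 45.2% ± 2.88 in SAP (SD, n = 8 each). Complex V messengers made up 17.1% ± 1.52, 17.8% ± 1.29 and 28.6% ± 4.19. All 8 SAP libraries lay below every control for complex IV and above every control for complex V. Complex I messengers made up 25.6% ± 1.03, 27.8% ± 0.989 and 23.0% ± 3.47, and complex III 1.40% ± 0.648, 1.5% ± 0.522 and 3.17% ± 0.382. Within the pool, mt-Atp8 alone went from 10.3% ± 0.931 in controls to 20.5% ± 4.10 in SAP. mt-Atp6 with its copy went from 6.77% ± 0.825 to 8.03% ± 0.799, with 4 of 8 SAP libraries above every control. The larger complex V share was thus mostly that of mt-Atp8, a row of 204 bases. Its last 43 bases are also the first of Gm10925, and it had no copy added. The chromosome 1 stretch between Gm10925 and Gm28661 was not compared with mt-Atp8. Whether a moved split of reads is part of its share was therefore not tested. mt-Nd3 went from 7.21% ± 1.04 in controls to 3.19% ± 0.891 in SAP. These shares are descriptions and were not tested.

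Ratios of single messengers within a library do not depend on the library total and were compared by exact two-sided permutation tests over all arrangements of 8 against 8 libraries. The geometric mean of mt-Co1 over mt-Nd1 was 7.18 in controls, 6.46 in AP and 3.60 in SAP. It was lower in SAP than in controls (log2 difference −1.0, exact permutation p adjusted over 9 tests = 0.00280) and than in AP (−0.84, adjusted p = 0.00280), with 7 of 8 SAP libraries below every control. With the copy of mt-Co1 added, the differences were −0.87 and −0.72 (exact permutation p adjusted over 6 tests = 0.00155 and 0.00210). mt-Nd6 over mt-Cytb, neighbours on opposite strands, was 0.585, 0.573 and 0.405, and was lower in SAP than in AP (−0.50, exact permutation p adjusted over 9 tests = 0.0280). That call was lost without AP 11, AP 12, AP 13, AP 16, SAP 25 or SAP 28 (adjusted p up to 0.0559). The limit on strand given for mt-Nd6 applies to this ratio as well. mt-Rnr2 over mt-Rnr1 was 0.355, 0.380 and 0.345, and passed in no comparison.

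mt-Co3 over mt-Atp6, adjacent on the heavy strand, could be formed only with the copies, since the mt-Atp6 row holds zeros. It lay between 2.06 and 3.00 in controls (median 2.43), between 1.89 and 3.04 in AP (median 2.41) and between 1.32 and 1.54 in SAP (median 1.42). The SAP libraries lay below all others, and their spread was narrow. The log2 difference was −0.80 against controls and −0.77 against AP (exact permutation p = 0.000155 for each, the smallest that 8 against 8 libraries allow, 0.000466 adjusted over 6 tests), and −0.03 between AP and controls (adjusted p = 0.749). In none of the ratios did the difference between AP and controls pass.

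The nuclear-encoded partners of the same complexes rose more often than they fell in AP and moved both ways in SAP. Of 79 tested subunits of complexes I to V, 24 passed as higher and 1 as lower in AP against controls, beside 4.35% and 1.13% of all genes tested. In SAP against controls 23 passed as higher and 40 as lower, beside 44.2% and 29.8% of all genes. Their median log2 change was 0.28 in AP and −0.26 in SAP, beside 0.06 and 0.21 over all genes, and −0.57 and −1.66 for the 13 mitochondrial messengers as deposited. Summed, the nuclear subunits held 2.33% ± 0.217 of the library in controls, 2.63% ± 0.196 in AP and 1.87% ± 0.122 in SAP (SD, n = 8). The number higher in AP depended on scaling and was 7 under quantile normalization and 10 when TPM were rescaled to the total without mitochondrial rows.

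By complex, complex I held most of the nuclear falls, with 23 of 37 subunits lower in SAP and 5 higher. Beside this and the counts below, 29.8% of all tested genes passed as lower in SAP and 44.2% as higher. Ndufv3, an accessory subunit, went from 499 ± 35.5 TPM in controls to 452 ± 36.9 in AP and 138 ± 31.2 in SAP (log2 change in SAP −1.88, SE 0.11, adjusted p = 9.61e-14), and Ndufb7, another accessory subunit, from 440.3 ± 35.2 to 464 ± 33.6 and 197 ± 32.1 TPM. In complex III, 3 of 9 nuclear subunits passed as lower in SAP and 5 as higher. Its 2 most abundant nuclear subunits were among the lower, where Uqcrq fell by 1.51 in SAP (adjusted p = 1.20e-11) and Uqcr11 by 0.95 (adjusted p = 1.02e-08). In complex V, 7 of 17 tested passed as lower and 7 as higher. Its 2 most abundant nuclear subunits were among the lower, where the small subunit Atp5e fell by 1.31 (adjusted p = 6.96e-11) and Usmg5 by 0.44 (adjusted p = 0.00385). Complex II, which has no mitochondrially encoded subunit, had 1 of 4 subunits lower in SAP, the iron-sulfur subunit Sdhb (−1.01, adjusted p = 4.95e-10), and 2 higher, while Sdhc had a log2 change of 0.02 (adjusted p = 0.871).

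Of 12 nuclear complex IV subunits, 6 passed as lower and 4 as higher in SAP against controls, beside 29.8% and 44.2% of all tested genes. In AP 0 passed as lower and 5 as higher, beside 1.13% and 4.35%. The 2 most abundant were Cox6a1 and Cox4i1. Cox4i1, a nuclear subunit that packs against the core, went from 695 ± 93.9 TPM in controls to 993 ± 117 in AP and 793 ± 62.7 in SAP (SD, n = 8). It rose by 0.52 in AP (SE 0.09, adjusted p = 0.00378), and its SAP change of 0.20 did not pass (adjusted p = 0.0605). Cox6a1 rose by 0.80 in AP (adjusted p = 0.0118) and by 0.82 in SAP (adjusted p = 0.000158), from 561 ± 163 TPM in controls to 970 ± 255 and 966 ± 143. The mitochondrial messengers mt-Co1, mt-Co2 and mt-Co3, with copies, passed as lower in both of these comparisons.

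**Figure D5:**
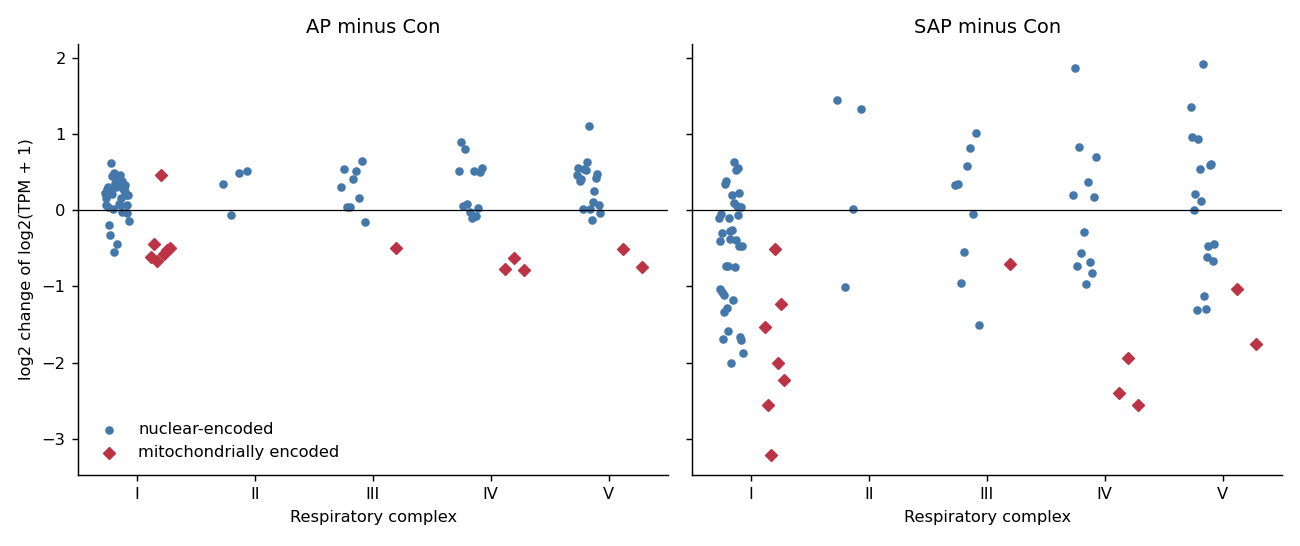
Log2 changes of 79 nuclear-encoded subunits (blue circles) and the 13 mitochondrially encoded subunits with copies added (red diamonds) are plotted by respiratory complex. In SAP minus Con the nuclear subunits span −2.0 to 1.92, and all 13 mitochondrial messengers lie at or below −0.51.

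Genes that transcribe, process and stabilise mitochondrial RNA are nuclear-encoded, and 30 of 33 listed ones were tested. In AP only Hsd17b10, a subunit of the enzyme that trims transfer RNA 5′ ends, passed (0.51, SE 0.13, adjusted p = 0.0282). Against controls, 13 of the 30 passed as higher in SAP and 8 as lower. Over all tested genes the shares were 44.2% higher and 29.8% lower, so the list as a whole stood near them. Polrmt, the mitochondrial RNA polymerase, ranged from 17.6 to 32 TPM in controls and from 6.87 to 15.3 in SAP, without overlap, and fell by 1.32 (SE 0.15, adjusted p = 1.80e-08). Tfam, which packages mitochondrial DNA and helps start transcription, ranged from 2.17 to 3.46 TPM in controls and from 5.62 to 21.8 in SAP, and rose by 1.75 (SE 0.19, adjusted p = 1.03e-08). Polrmt and Tfam thus moved in opposite directions.

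The remaining members can be taken by role. Tfb2m, the factor that helps the polymerase open promoters, rose by 0.81 (adjusted p = 7.22e-07), as did Mterf3 (0.58), Mterf4 (0.38) and Tfb1m, a ribosomal RNA methyltransferase (0.51), while Tefm, the elongation factor, did not pass (−0.10, adjusted p = 0.668). Among processing factors Elac2, which cuts transfer RNA 3′ ends, rose by 1.28 (adjusted p = 8.44e-07), Trmt10c by 0.90, Mtpap, the poly(A) polymerase, by 0.96, and Grsf1 by 0.86. Of the messenger-stabilising pair, Slirp fell by 0.94 (adjusted p = 1.27e-06) whereas Lrpprc had a log2 change of −0.10 (adjusted p = 0.409). Supv3l1, the helicase of the RNA degradation complex, fell by 1.18 (adjusted p = 1.81e-09), and its nuclease Pnpt1 did not pass (0.44, adjusted p = 0.0876).

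The FASTK family of mitochondrial RNA-binding proteins was divided. Fastk (−0.84), Fastkd1 (−0.60) and Fastkd2 (−1.19) fell in SAP, Tbrg4 (1.16) and Fastkd3 (0.47) rose, and Fastkd5 did not pass (0.29, adjusted p = 0.146). Ptcd1 (0.57) and Ptcd2 (0.49) rose, and 1110008L16Rik fell by 0.42. Of the replication genes Polg2 fell by 0.80 (adjusted p = 1.28e-05), while Polg (0.01), Twnk (−0.11) and Ssbp1 (−0.10) did not pass. Neither Rexo2 (0.11) nor Hsd17b10 (0.19) passed in SAP against controls.

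Of 9 listed regulators of mitochondrial gene programmes 7 were tested, and 0 passed in AP. In SAP 6 passed as higher and 1 as lower, beside 44.2% and 29.8% of all tested genes. Esrra, a nuclear receptor that activates respiratory genes, had the highest mean of the list and went from 18.2 ± 4.79 TPM in controls to 16.0 ± 1.93 in AP and 4.33 ± 1.63 in SAP (log2 change in SAP −1.87, SE 0.16, adjusted p = 1.88e-10). Yy1 rose from 4.87 ± 1.17 to 10.0 ± 1.49 TPM (0.92, adjusted p = 1.48e-07). Nrf1, Gabpa, Gabpb1, Pprc1 and Ppara completed the 6 that rose, and were named after their values were seen.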

How the data were processed

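Livers frozen in liquid nitrogen were extracted with Trizol and made into Illumina libraries, per the labels. The authors deposited 1 table of TPM for 24 libraries. The submitters' processing notes name edgeR, with no version, while the aligner, genome build, annotation and strand setting are stated in no source used here. Columns were mapped to libraries by title, and 0 stayed unmapped. GENCODE M21 (GRCm38), which holds 99.81% of the row names, gave positions, classes and sequences. It gave the near-identical nuclear copies too, genes sharing at least 90% of their 50-base windows with a mitochondrial gene.

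TPM were tested as log2(TPM + 1) with limma 3.58.1 in R 4.3.3, with an intensity trend and group as the only term, over all 24 libraries, and 10555 genes averaging 1 TPM or more were kept. The threshold was a Benjamini-Hochberg adjusted p of 0.05. The fit was also run on simulated data in which far fewer genes changed than passed in SAP, so that run is no support for the SAP calls. A fold change on this scale understates that of low genes. Ratios were tested with scipy 1.17.1. Where a library is left out of a comparison's fit, the spread comes from the remaining ones. Leaving out SAP libraries thus kept the changes of AP against controls, and only their spread and p-values could differ.

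Named were all mitochondrial messengers, both ribosomal RNAs, transfer RNAs with a mean of at least 1 TPM, the 2 most abundant members of each nuclear list, and all tested members of the list of mitochondrial RNA factors. Genes outside this rule are named as chosen after their values were seen. The members and lists were chosen with earlier results of these data known. The planned ratio of mt-Co3 over mt-Atp6 could not be formed from the rows, and the nuclear list leaves out Atp5o, which has 2 rows.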

Additional observations from a re-analysis of the deposited data

Results flagged for a closer look

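Single libraries stood apart from the others of their group in 9 of 90 groups of 8 examined for the mitochondrial rows, their nuclear copies and sums (Dixon's test at the 95% level, which by chance flags about 1 in 20 groups). Con 1 was high for mt-Rnr2, at 2153 TPM with the other controls at most 1265, and for mt-Tp, at 1898 TPM with the others at most 1281. Con 10 was high for mt-Co3 at 4384 TPM, the other controls reaching 2976. Con 8 was high for Gm29216 at 13.2 TPM, the others reaching 3.46. AP 12 held 19.6 TPM of mt-Atp6, which was at most 0.06 in the other AP libraries, and AP 13 held 7883 TPM of Gm28438, with the others at most 5002. In SAP, library 27 was high for mt-Rnr2 at 947 TPM (others at most 438), library 22 for mt-Tp at 408 TPM (others at most 250.08), and library 29 was low for mt-Co3 at 113 TPM (others at least 544).

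The libraries at the ends were partly the same from row to row. Over the 17 rows above 0 in all libraries, SAP 29 was the lowest of its group for 10 and SAP 22 the highest for 9, AP 15 was the lowest for 10 and AP 13 the highest for 7, and Con 3 was the lowest for 9 and Con 7 the highest for 7. The cause was not tested.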

How the results depend on the processing

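No paired analysis was possible because the groups share no replicate numbers. The alternatives were 2 normalizations (quantile, median centring), 2 rescaled totals, 2 other filters and pseudocounts, 2 other spread models, each pair of groups alone, and fits without libraries. Over single mitochondrial genes, 649 of 702 gene-settings in AP against controls, 690 of 702 in SAP against controls and 694 of 702 in SAP against AP kept direction and side of the threshold, with 1 reversal, mt-Atp6 in SAP against AP, at −1.01 with its copy added where the row gave 1.09 and did not pass. The count of lower rows in AP (4) was 2 under median centring, 9 with array weights, 1 with no filter, 8 with the 2 groups alone or without SAP 26 to 29, and 2 to 5 without 1 library, with 2 without Con 1, 7, 9 or 10 or AP 15, 17, 18 or 19. In SAP against controls and against AP it stayed at 14 to 16 and 13 to 14 without 1 library. The nuclear subunits higher in AP (24) numbered 7 under quantile normalization, 15 under median centring or with the 2 groups alone, 10 and 8 with the total taken without mitochondrial rows or without the 50 most abundant genes, 11 with no filter, and 10 to 34 without 1 library, with 14 or fewer without Con 1, 7 or 10 or AP 15, 17, 18 or 19. Those lower in AP (1) numbered 3 under quantile normalization, with array weights or without Con 3 and Con 9, and 1 to 2 without 1 library (2 without Con 3, AP 12 or AP 13). Those higher in SAP against controls (23) numbered 15 under median centring. Those higher in SAP against AP (10) numbered 16 under quantile normalization, 5 under median centring or without mitochondrial rows in the total, 6 without SAP 26 to 29, and 6 to 10 without 1 library (6 without AP 11 or AP 13). The log2 difference of mt-Nd6 over mt-Cytb between SAP and AP lay between −0.59 and −0.35 without 1 library. The mitochondrial share was 30.9%, 20.3% and 10.1% in controls, AP and SAP with the 50 most abundant other genes left out of the total, and 28.4%, 18.0% and 7.38% with copies. The cause of these shifts was not tested, apart from the copies, whose sums change by construction. Depth is unknown, so low rows such as mt-Ts1 in SAP carry a counting error that could not be given.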
